A study of Sus scrofa with 8 samples.

Results

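The genes described here are the interleukins and interleukin receptors of sorted porcine T cells, measured with oligonucleotide arrays. They were taken by name: every gene whose symbol on the array platform starts with IL and a digit, except IL7R. This gave 38 of 4559 genes with a symbol, of which 23 encode ligands and 14 receptor chains, and 1, IL4I1, encodes a secreted amino acid oxidase. Each gene is represented by its brightest probe, the one with the highest mean over the 8 columns of the authors' deposited series matrix. A further 3 interleukin genes carry a hyphen in their platform symbol and lie outside the rule.

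The T cells came from 2 Large White x Landrace sows, from the blood and from the colostrum, the milk secreted around birth. CD3-positive cells were sorted into cells with CD8 and without CD4 (CD8 single positive) and cells with both CD4 and CD8 (double positive), a mature population that pigs carry in the circulation. There are 4 groups of 2 samples, 1 from each sow: colostrum CD8 single positive, colostrum double positive, blood CD8 single positive and blood double positive. The labels give no age, treatment or genotype, and cDNA was amplified from 10 ng of RNA of each sample. All colostrum samples were labelled with Alexa Fluor 3 and all blood samples with Alexa Fluor 5, so in any difference between the sources the dye and the source cannot be told apart, whereas double positive and CD8 single positive cells of 1 source share their dye. The sorted populations hold many cells, and fewer cells of a type and less RNA per cell cannot be told apart.

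Interleukins are small secreted proteins through which leukocytes instruct each other, and most are made by T cells only for a short time after their antigen receptor is engaged. Their receptors are assembled from shared chains. IL2RG, the common gamma chain, serves the receptors of IL-2, IL-4, IL-7, IL-9, IL-15 and IL-21, IL6ST (gp130) serves the IL-6 family, and IL12RB1 is used by the receptors of both IL-12 and IL-23. Most of these receptors signal through JAK kinases and STAT transcription factors, and those of the IL-1 family through MYD88 and IRAK kinases.

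Levels below are normalized log2 intensities, and a difference is the log2 difference of 2 group means with the standard error of limma's fit over 8 samples. A gene counted as above background in a sample when its probe exceeded the 95th percentile of the negative-control spots there, a threshold of 6.77 to 7.05 on the log2 scale that 5.23% of the negative controls pass by construction. The floor of the scale is 5.36, and values there have no order. Different probes differ in brightness, so levels of different genes are not compared. The genes of the sort were read as a check. CD8A was above background in all 8 samples, at 8.32 to 9.63 in CD8 single positive and 7.21 to 8.04 in double positive cells. CD8B was at 7.68 to 9.84 in the 4 CD8 single positive samples. In the 4 double positive samples CD8B was below background, at 5.36 to 5.99. CD4 was at 8.68 and 8.77 in blood double positive cells and at 7.81 and 6.90 in colostrum double positive cells, the last not above background, against 5.36 to 6.29 in CD8 single positive cells.

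The interleukin transcripts themselves were mostly near or below background in these cells. Of the 38 genes, 7 were not above background in any sample, 14 in a single sample, 14 in 2 to 7 samples and 3 in all 8. Among all 4559 genes, 18.1% were above background in no sample and 23.6% in all 8, against 18.4% and 7.89% of the interleukin system. From 8 to 17 of the 38 genes were above background in a sample, or 21.1% to 44.7%, while 41.9% to 49.5% of all genes were. The sample with 17 was colostrum CD8 single positive of sow 2, in which 9 ligands were above background, and the sample with 8 was colostrum double positive of sow 2, with 2 ligands. In the former sample the summed intensity of 6 markers of mammary epithelium and milk was 3203 units, against 373 to 858 in the other 7 samples. CSN1S1, a casein at 11.38, carried most of this sum. CSN3 and KRT8 were above background there as well. They were also above it in blood CD8 single positive cells of sow 2 and colostrum double positive cells of sow 1. The part of the mammary markers in the detection of these ligands was not tested. The array can show only that these transcripts were not detectable at its background, not that they were absent.

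**Figure D1:**
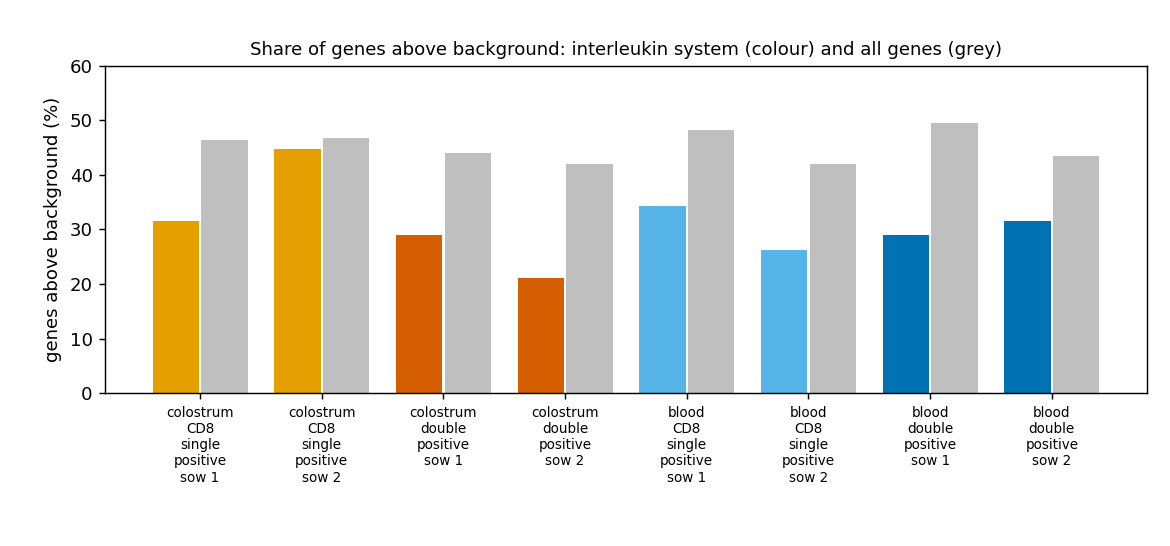
Percent of genes above background in each sample, for the 38 interleukin and receptor genes (coloured bars) and for all 4559 genes with a symbol (grey bars). In each of the 8 samples the coloured bar is the lower, from 21.1% to 44.7% against 41.9% to 49.5%.

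Among the ligands, 5 of 23 were above background in no sample. They are IL2, the T cell growth factor, IL12A and IL12B, the subunits of IL-12, IL17A, the signature cytokine of type 17 cells, and IL18, which acts with IL-12 to induce interferon gamma. Their highest values were 6.25 to 6.95. A further 10 ligands passed in 1 sample each. They include the type 2 cytokines IL4, IL9 and IL13, the follicular helper cytokine IL21 and IL6, all of them in colostrum CD8 single positive cells of sow 2, at 6.95 to 7.76. The value of the other sow in that group was not above background for any of these 5 genes, so no group had both sows above background for them.

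Among the receptors, 2 of 14 were above background in no sample, IL31RA and IL1RAPL2, and 4 in 1 sample each. IL2RA, the inducible alpha chain of the IL-2 receptor (CD25), was among the latter, with 7.15 in blood double positive cells of sow 2 and 5.36 to 6.68 in the other samples. IL13RA1, which pairs with IL4R, IL17RB, the receptor of IL-25, and IL1RL1, the receptor of IL-33, each passed in 1 colostrum CD8 single positive sample, at 7.44, 7.03 and 7.01.

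**Figure D2:**
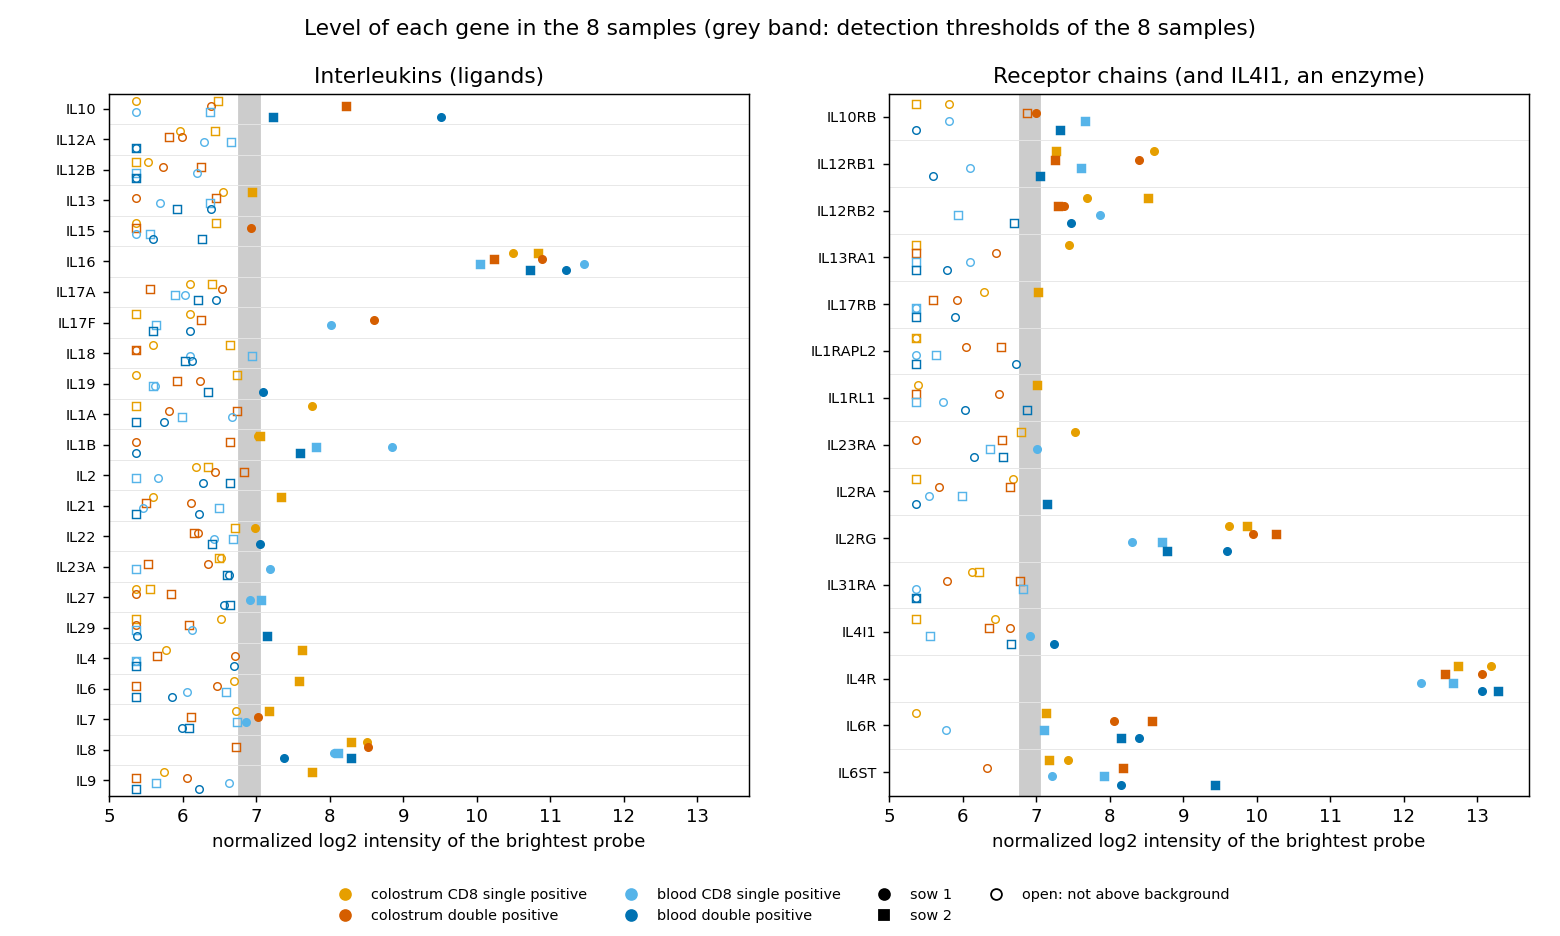
Normalized log2 intensity of each gene in the 8 samples, ligands on the left and receptor chains with IL4I1 on the right, coloured by group, with circles for sow 1, squares for sow 2 and open symbols for values not above background. IL16, IL2RG and IL4R lie above the grey band of detection thresholds (6.77 to 7.05) in all 8 samples, while the open symbols of most other genes lie at or to the left of it.

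The 3 genes above background in all 8 samples were IL16, IL2RG and IL4R. IL16 encodes a precursor that is stored in resting T cells and cleaved into a ligand of CD4. In CD8 single positive cells it was at 10.50 and 10.83 in colostrum and 11.47 and 10.04 in blood, and in double positive cells at 10.89 and 10.24 in colostrum and 11.21 and 10.72 in blood. The groups overlapped, and the 4 differences between pairs of groups lay between -0.40 and 0.22. With 75th percentile scaling the difference between colostrum and blood double positive cells was -2.14 (adjusted p = 0.0758), against -0.40.

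IL4R encodes the alpha chain of the IL-4 receptor. Its brightest probe was in CD8 single positive cells at 13.18 and 12.73 in colostrum and 12.24 and 12.67 in blood, and in double positive cells at 13.06 and 12.56 in colostrum and 13.06 and 13.28 in blood. In blood, double positive cells lay above CD8 single positive cells in both sows, with a difference of 0.71 ± 0.48 (SE, n = 2 per group; 95% interval -0.37 to 1.79; limma adjusted p = 0.952). The second IL4R probe, above background in 7 of 8 samples, differed there by -0.43, so the probes disagree in sign. In colostrum the brightest probe differed by -0.15 ± 0.48 between the populations.

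IL2RG, the common gamma chain, was at 9.61 and 9.86 in colostrum and 8.31 and 8.70 in blood CD8 single positive cells. In double positive cells it was at 9.94 and 10.26 in colostrum and 9.59 and 8.78 in blood. All 4 colostrum samples lay above all 4 blood samples, by little between 9.61 and 9.59. The difference between colostrum and blood was 1.23 ± 0.50 (95% interval 0.12 to 2.35) in CD8 single positive cells, with 1.31 in sow 1 and 1.16 in sow 2, and 0.91 ± 0.50 (-0.20 to 2.03) in double positive cells, with 0.35 and 1.48. A second probe, also above background in all 8 samples, differed by 0.60 and 0.69. Neither difference of the brightest probe passed limma's test after adjustment (adjusted p = 0.599 and 0.671). Under scaling of each sample by its 75th percentile they were 0.16 and -0.62, so the direction in double positive cells depends on the scaling. Between the populations the brightest probe differed by 0.36 ± 0.50 in colostrum and 0.68 ± 0.50 in blood.

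The comparison of double positive with CD8 single positive cells asks how the 2 sorted populations differ within 1 source and 1 dye. IL6R, the ligand-binding alpha chain of the IL-6 receptor, was at least 2-fold higher in double positive cells of both sows in both sources. Over all genes tested, 2.67% met this in colostrum and 2.59% in blood, and the share that met it in both was not computed. IL6R was at 8.06 and 8.58 in colostrum and 8.40 and 8.15 in blood double positive cells. In CD8 single positive cells it was at 5.36 and 7.14 in colostrum and 5.77 and 7.10 in blood. All 4 double positive samples lay above all 4 CD8 single positive samples, and in each source the CD8 single positive sample of sow 2 alone was above background. The difference was 2.07 ± 0.69 in colostrum (SE, n = 2 per group; 95% interval 0.52 to 3.61), with 2.70 in sow 1 and 1.44 in sow 2. In blood it was 1.83 ± 0.69 (0.29 to 3.38), with 2.62 and 1.05. The unadjusted p of limma was 0.014 and 0.0248, and neither difference passed after adjustment over 3740 genes (adjusted p = 0.569 and 0.87).

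The other IL6R probes were read as a check. The second was at 7.15 and 7.40 in colostrum and 7.72 and 7.68 in blood double positive cells and below background in all 4 CD8 single positive samples, which makes it at least 1.36-fold higher in colostrum and at least 1.71-fold higher in blood. The third was above background in 3 samples, all double positive: both from blood (6.87 and 7.16, at least 1.06-fold higher) and that of sow 2 from colostrum (7.17). In colostrum the other 3 values of the third probe were below background, so it gives no direction there. Between colostrum and blood the brightest IL6R probe differed by -0.19 ± 0.69 in CD8 single positive and 0.04 ± 0.69 in double positive cells.

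**Figure D3:**
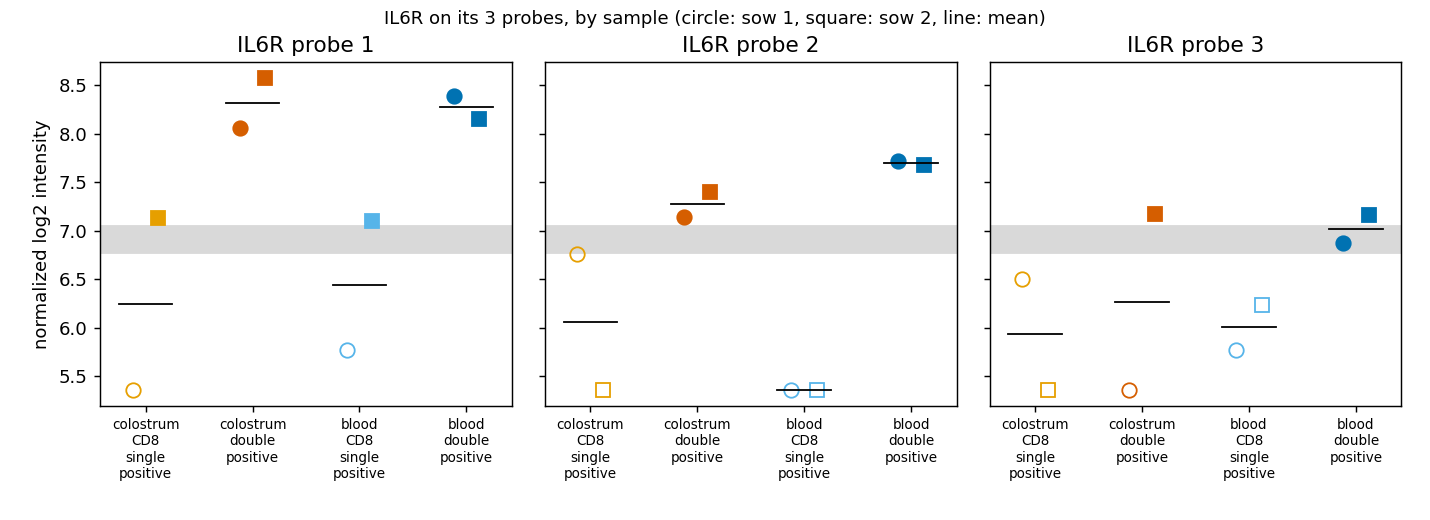
Normalized log2 intensity of IL6R on each of its 3 probes in the 8 samples, by group, with circles for sow 1, squares for sow 2, a line at each group's mean, open symbols for values not above background and a grey band for the detection thresholds. On probes 1 and 2 the 4 double positive samples lie above the 4 CD8 single positive samples (8.06 to 8.58 against 5.36 to 7.14 on probe 1).

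IL6ST, the signalling chain gp130 that IL6R recruits, did not share the pattern in colostrum. It was at 8.16 and 9.43 in blood double positive and 7.22 and 7.92 in blood CD8 single positive cells, a difference of 1.23 ± 0.70 (95% interval -0.35 to 2.80) that had the same sign in both sows (0.94 and 1.51; adjusted p = 0.936). In colostrum it was at 6.34 and 8.19 in double positive and 7.43 and 7.18 in CD8 single positive cells, with opposite signs in the sows (-1.09 and 1.01). The second IL6ST probe was above background only in the 2 colostrum samples of sow 1 (7.44 in CD8 single positive and 7.47 in double positive cells), so it gives no direction in blood.

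IL10, a cytokine that restrains immune responses, had the largest difference of any ligand between the populations in blood. It was at 9.52 and 7.23 in blood double positive cells and below background in both blood CD8 single positive samples, at least 2.73-fold higher. The fitted difference was 2.51 ± 0.88 (95% interval 0.54 to 4.48; unadjusted p = 0.0179, adjusted p = 0.87), but 4.16 in sow 1 and 0.87 in sow 2, whose value of 7.23 lies close to the detection threshold. Without the blood double positive sample of sow 1 it was 1.37. In colostrum double positive cells IL10 was at 6.39 and 8.23, with the value of sow 1 not above background, and at 5.36 and 6.48 in CD8 single positive cells, a difference of 1.39 ± 0.88. The second IL10 probe was above background in no sample. The values above background thus come from 1 probe and 3 samples, 2 from blood and 1 from colostrum.

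IL1B, the inflammatory cytokine IL-1 beta, had the opposite direction. It was at 8.85 and 7.81 in CD8 single positive cells of blood and at 5.36 and 7.60 in blood double positive cells, a difference of -1.85 ± 0.78 (95% interval -3.60 to -0.11; unadjusted p = 0.0398, adjusted p = 0.876) that came to -3.49 in sow 1 and -0.22 in sow 2. In colostrum it was at 7.02 and 7.05 in CD8 single positive cells, just above the threshold, and below background in both double positive samples, a difference of -1.03 ± 0.78 and at least 1.08-fold lower in double positive cells. Pigs carry a near-identical copy, IL1B2, whose brightest probe was above background in 1 sample, so the IL1B signal cannot be assigned to 1 of the copies with certainty. Monocytes make IL-1 beta, and of 5 markers listed for them 3 were on the array. Their summed intensity was 418 and 448 units in blood CD8 single positive and 244 and 313 in blood double positive cells. In colostrum it was 286 and 293 in CD8 single positive cells, and 547 in sow 1 and 232 in sow 2 in double positive cells. In the sample with 547 units, CD163 was at 8.56 and CD14 at 7.01, both above background. LYZ was above background only in the 2 blood CD8 single positive samples (7.63 and 7.55). Between the populations in blood, CD14 differed by -0.99 (-0.36 in sow 1 and -1.61 in sow 2), LYZ by -1.09 and CD163 by 0.04. In blood CD8 single positive cells of sow 1, CD14 was above background at 7.48 and CD163 was at the floor. The part of these markers in the result was not tested.

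IL12RB2, the chain that makes the IL-12 receptor signal, was at 7.68 and 8.52 in CD8 single positive and 7.38 and 7.30 in double positive cells of colostrum, a difference of -0.77 ± 0.68 (95% interval -2.30 to 0.76). In blood it was above background in sow 1 alone, at 7.87 in CD8 single positive and 7.47 in double positive cells. IL12A passed an unadjusted p under 0.05 in blood (-1.11 ± 0.46), but all of its values were below background and have no order.

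The counts over the list were set beside those over all genes. In colostrum, limma called 0 of the 34 interleukin and receptor genes that passed the filter on dim probes between double positive and CD8 single positive cells, against 1 of 3740 genes (0.0267%). At an unadjusted p under 0.05 it was 1 of 34 (2.94%), IL6R, where 7.17% of all genes passed. In blood it called 0 of 34 and 0 of 3740 (0%), with 4 of 34 (11.8%) at an unadjusted p under 0.05, namely IL6R, IL10, IL1B and IL12A, against 5.29% of all genes. IL12A, with no value above background, is among these 4. At least 2-fold higher in double positive cells of both sows were 3 of 34 genes in colostrum (8.82%, background 2.67%), namely IL6R, IL10 and the IL-10 family receptor chain IL10RB, and IL6R alone in blood (2.94%, background 2.59%). None was 2-fold lower in both sows in either source (3.58% and 2.01%). IL10 and IL10RB were each above background in 1 of the 4 colostrum samples, so their fold there rests on values below background. The difference between the list's shares and the background was not tested. The median difference over the 34 genes was -0.24 in colostrum and 0.15 in blood, beside -0.03 and 0.03 over all genes tested.

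**Figure D4:**
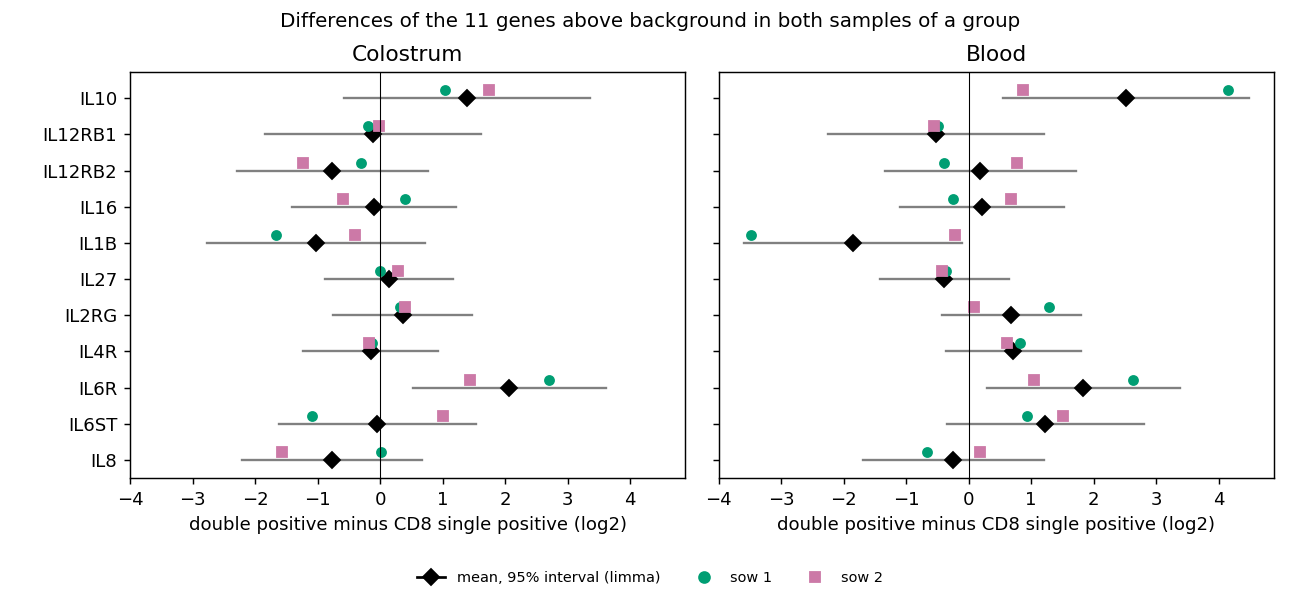
Log2 difference of double positive minus CD8 single positive cells in colostrum (left) and blood (right) for the 11 genes above background in both samples of at least 1 group, with the mean and 95% interval of limma (diamond, line) and the value of each sow (circle, square). The interval of IL6R lies above 0 in both sources (0.52 to 3.61 and 0.29 to 3.38), that of IL10 in blood alone.

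Markers listed for other cell types were read beside these genes, and some differed between the populations. They do not tell which of the sorted cells made the transcripts. The summed intensity of 3 markers of NK and gamma delta T cells was 1851 and 2677 units in colostrum CD8 single positive against 394 and 802 in colostrum double positive cells, and 1170 and 1263 against 258 and 408 in blood. KLRK1 and FCER1G carried these sums, and NCR1 was below background in all samples. The B cell gene CD79A, 1 of 4 markers on the array, was at 8.82 and 8.54 in blood CD8 single positive and below background in blood double positive cells. In colostrum CD79A was at 7.62 and 8.76 in CD8 single positive and 6.59 and 9.48 in double positive cells, with opposite signs in the sows. Among the 6 mammary markers, CSN1S1 was at 7.36 and 11.38 in colostrum CD8 single positive and below background in colostrum double positive cells, at least 5.42-fold lower there (unadjusted p = 0.0109, adjusted p = 0.569), and at 8.60 in blood CD8 single positive cells of sow 2. LALBA went the other way. It was above background only in the 2 blood double positive samples (7.13 and 7.19), at least 1.17-fold higher than in blood CD8 single positive cells. In colostrum LALBA differed by 1.34, on values below background. Of the 5 mammary markers tested, 3 were higher in double positive cells of colostrum, with a median of 0.50. The summed mammary intensity was 445 and 3203 units in colostrum CD8 single positive and 700 and 404 in colostrum double positive cells. Without the colostrum CD8 single positive sample of sow 2, the difference of IL6R in colostrum was 2.96 and that of IL12RB2 was -0.35. The remaining IL6R value of colostrum CD8 single positive cells was at the floor, so the 2.96 depends on where the floor lies. The part of these markers in the differences above was not tested.

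The comparison of colostrum with blood, for which the series was designed, asks how T cells of the same phenotype differ between the mammary secretion and the circulation. In CD8 single positive cells the members with an unadjusted p under 0.05 were IL2RG, given above, and IL27, a subunit of a cytokine made mainly by antigen-presenting cells. IL27 was at 5.36 and 5.55 in colostrum, below background, and at 6.91 and 7.07 in blood, just above the thresholds of 6.80 and 7.05. It was therefore at least 1.12-fold lower in colostrum, although the fitted difference was -1.54 ± 0.46 (unadjusted p = 0.00789, adjusted p = 0.526). It was -0.10 with the floor raised to the 95th percentile of the negative controls. In double positive cells it was below background in all 4 samples. IL1B differed by -1.30 ± 0.78 (95% interval -3.04 to 0.45), with -1.83 in sow 1 and -0.77 in sow 2. The monocyte marker sums above differ in the same direction. By gene, CD14 differed by -0.37, LYZ by -1.17 and CD163 by 0.22. The part of these markers was not tested.

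IL4R differed by 0.50 ± 0.48 and IL8, the neutrophil chemokine now named CXCL8, by 0.31 ± 0.64 in CD8 single positive cells. The second IL4R probe differed by -0.28 there, so the IL4R probes disagree in sign here too. IL8 was at 8.50 and 8.28 in colostrum and 8.05 and 8.12 in blood. With 75th percentile scaling both signs were the opposite, at -1.24 and -0.50. In double positive cells IL8 was at 8.52 and 6.72 in colostrum and 7.38 and 8.30 in blood, with opposite signs in the sows.

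The receptor chains of IL-12 were above background in every colostrum sample. IL12RB1 was at 8.60 and 7.27 in colostrum CD8 single positive and 8.40 and 7.25 in colostrum double positive cells, against 6.10 and 7.61 in CD8 single positive cells of blood and 5.60 and 7.05 in blood double positive cells. In blood it was above background in sow 2 and not in sow 1. The difference was 1.08 ± 0.77 in CD8 single positive cells, with opposite signs in the sows (2.50 and -0.34), and 1.50 ± 0.77 in double positive cells (95% interval -0.23 to 3.23), where it came to 2.80 in sow 1 and 0.19 in sow 2. IL12RB2 differed by 1.20 ± 0.68 in CD8 single positive and 0.25 ± 0.68 in double positive cells, again with opposite signs in the sows in each population. Neither chain passed limma's test (adjusted p = 0.646 for IL12RB1 in double positive cells).

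On its brightest probe IL6ST lay lower in colostrum than in blood double positive cells in both sows, with differences of -1.82 and -1.25. The fitted difference was -1.53 ± 0.70 (95% interval -3.11 to 0.04, adjusted p = 0.608 in limma). The colostrum value of sow 1, 6.34, was below background, so the -1.82 depends on it. On the second probe that sample was above background at 7.47 and the blood sample of sow 1 was below it at 6.03, the opposite direction. In sow 2 both values of the second probe were below background. In CD8 single positive cells the brightest probe differed by -0.27 ± 0.70. IL17F, a cytokine of type 17 cells, was at 8.61 in colostrum double positive cells of sow 1 and at 8.01 in blood CD8 single positive cells of sow 1, and below background in the other 6 samples. No group had both sows above background for IL17F, so its differences rest on single samples.

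limma called 0 of 34 genes in CD8 single positive cells and 0 of 34 in double positive cells, where it called 0% of all 3740 genes in each. At an unadjusted p under 0.05 there were 2 of 34 in CD8 single positive cells (background 7.78%) and 0 of 34 in double positive cells (8.5%). By size, IL2RG alone was at least 2-fold higher in colostrum CD8 single positive cells of both sows (background 3.37%) and IL27 alone 2-fold lower (3.61%). In double positive cells none was 2-fold higher (2.57%) and IL6ST alone was 2-fold lower (4.6%). The second IL6ST probe went the other way in sow 1. The median difference over the 34 genes was 0.27 in CD8 single positive and -0.16 in double positive cells, beside -0.06 and -0.09 over all genes. Over the 9 genes above background in both samples of a group compared, it was 0.31 and -0.22.

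**Figure D5:**
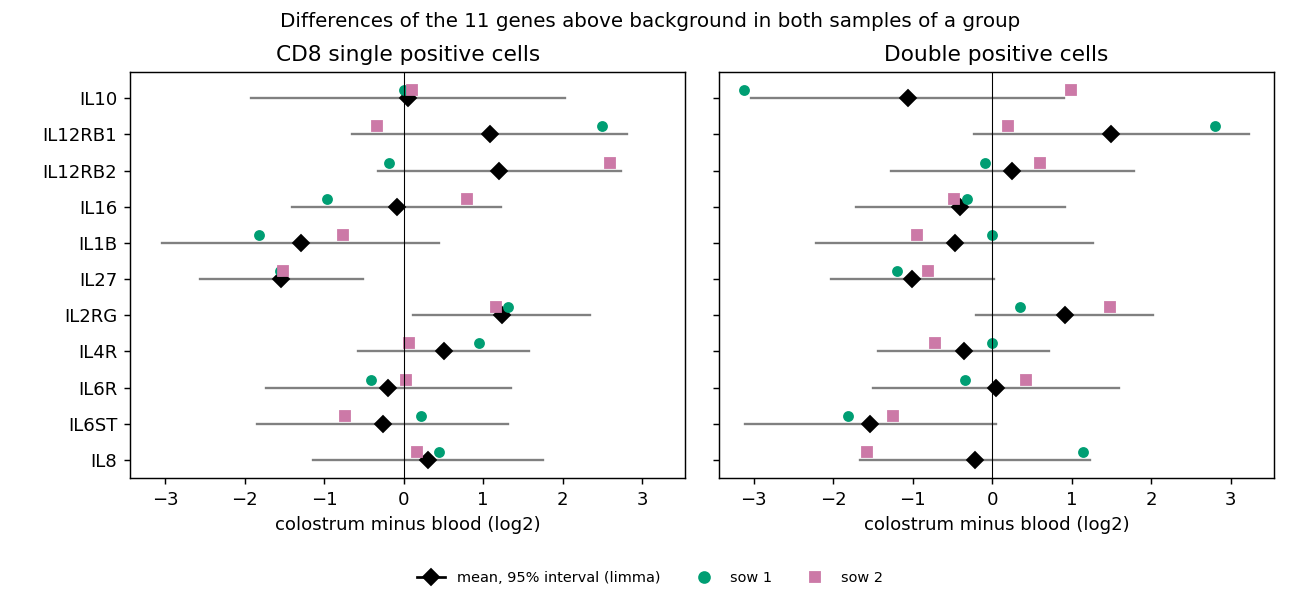
Log2 difference of colostrum minus blood in CD8 single positive (left) and double positive cells (right) for the 11 genes above background in both samples of at least 1 group, with the mean and 95% interval of limma (diamond, line) and the value of each sow (circle, square). The intervals of IL2RG (0.12 to 2.35) and IL27 (-2.57 to -0.51) exclude 0 in CD8 single positive cells, and for IL12RB1 and IL12RB2 there the sows lie on opposite sides of 0.

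Whether the difference between colostrum and blood depended on the population was tested with the interaction term. limma called 0 of 34 genes (0% of 3740), with 0 of 34 at an unadjusted p under 0.05 (2.35% of all genes) and a smallest adjusted p of 0.997. IL10RB alone had an interaction of at least 2-fold in both sows upward (1.63 and 1.85; background 2.43%), and none had one downward (4.44%). IL10RB was above background in 3 of 8 samples. It was at the floor in blood double positive cells of sow 1 and colostrum CD8 single positive cells of sow 2. Its interaction thus rests on values below background in both sows. Among genes above background in both samples of a group and with the same sign in both sows, the values were -1.27 ± 0.99 for IL6ST, -0.86 ± 0.68 for IL4R, 0.53 ± 0.65 for IL27, 0.42 ± 1.09 for IL12RB1 and 0.24 ± 0.97 for IL6R. The 95% interval of IL6R, -1.95 to 2.42, leaves room for a difference between the sources as large as the difference between the populations itself.

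The spread between the 2 sows varied by group. Among genes above background in at least 4 samples, the median absolute difference between the sows was 1.03 for the 9 interleukin and receptor genes in blood CD8 single positive cells, against 0.46 over all 1922 such genes. It was 0.81 against 0.48 in blood double positive cells and 0.65 against 0.55 in colostrum double positive cells, but 0.33 against 0.54 in colostrum CD8 single positive cells. Over the 34 genes tested it was 0.69 against 0.58 in blood CD8 single positive, 0.54 against 0.57 in blood double positive, 0.74 against 0.66 in colostrum CD8 single positive and 0.87 against 0.64 in colostrum double positive cells, the second of each pair over all 3740 genes. These medians are descriptions and were not tested.

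The signalling genes downstream of the receptors were read as a list. Of 26 genes, 20 were on the array and 19 passed the filter, and 12 to 16 of the 20 were above background in a sample. JAK1 and JAK3, the kinases bound by the common gamma chain receptors, and TYK2, a kinase of the IL-12 receptor, were above background in all 8 samples. JAK2 was above background in 2 samples. None of the 19 passed limma's test in any of the 5 comparisons. Between populations, the list had a median of 0.46 in colostrum and 0.30 in blood, with 14 of 19 higher in double positive cells in each. Over all genes tested the medians were -0.03 and 0.03, with 1802 and 1951 of 3740 higher. The difference between the list and all genes was not tested. STAT3, the factor activated through IL6ST, was at 10.16 and 9.62 in blood double positive and 7.99 and 8.69 in blood CD8 single positive cells, a difference of 1.55 ± 0.61 (adjusted p = 0.87). In colostrum it was at 9.41 and 8.24 against 8.69 and 7.57. MYD88, the adaptor of the IL-1 receptor family, differed by 1.48 ± 0.60 in colostrum (adjusted p = 0.672), with 1 of 2 CD8 single positive samples above background.

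Between colostrum and blood the medians of this list were -0.32 in CD8 single positive and -0.27 in double positive cells, beside -0.06 and -0.09 over all genes. STAT4, the factor activated by IL-12, was at 12.07 and 11.40 in colostrum and 9.90 and 10.61 in blood double positive cells, a difference of 1.48 ± 0.51 (adjusted p = 0.474). STAT6, the factor activated by IL-4, was below background in both colostrum CD8 single positive samples and at 8.57 and 7.13 in blood, at least 2.03-fold lower in colostrum (fitted difference -1.56 ± 0.60). PTPN2, a phosphatase of JAK and STAT proteins, was below background in both colostrum CD8 single positive samples and at least 2.52-fold lower than in blood (fitted difference -1.44 ± 0.52). In double positive cells PTPN2 differed by -1.31 ± 0.52, with 1 of 2 colostrum samples above background. SOCS2, a feedback inhibitor of cytokine receptors, differed by -2.11 ± 0.64 in double positive cells, with -3.21 in sow 1 and -1.02 in sow 2. The colostrum sample of sow 1 was below background for SOCS2, at 5.78, so the -3.21 depends on that value. The adjusted p of these last 3 genes lay between 0.403 and 0.599.

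Among 19 related cytokine and receptor genes with other names, 10 were on the array and 9 passed the filter, and none passed the test. IFNG, induced by IL-12 and IL-18, differed between colostrum and blood by 2.15 ± 0.67 in CD8 single positive and 1.97 ± 0.67 in double positive cells, with 4 samples above background, 3 of them from colostrum. In double positive cells both blood samples and 1 of the 2 colostrum samples were below background for IFNG, which makes it at least 1.48-fold higher in colostrum. IFNGR2, a chain of its receptor, was below background in both colostrum double positive samples and at least 2.27-fold lower than in blood (fitted difference -1.82 ± 0.53). IL7R, which the rule leaves out, differed by -1.29 ± 0.50 in CD8 single positive cells and was above background in all 8 samples, and its partner IL2RG differed by 1.23 there, in the opposite direction. The ligand IL7 was at 5.99 to 7.18 and above background in 3 samples. Of the genes with a hyphen in their symbol, IL18R1, a chain of the IL-18 receptor, was above background in 3 samples on its brightest probe and differed by 0.93 ± 0.82 between the populations in colostrum, with opposite signs in the sows. IL5 did not pass the filter.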

How the data were processed

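Per the labels' protocols, amplified cDNA was labelled and hybridised. The authors deposited 1 whole-number intensity per spot for each of 45220 spots per sample, some below 0, as after background subtraction; how the spots were scanned and corrected is not given in the sources used. The authors' deposited matrix gives 43603 probes on a log2 scale, unstated there; 79% of its values lay within 0.01 of the log2 of the quantile-normalized intensities computed here. It was used to choose each gene's brightest probe and as an alternative.

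Intensities were averaged over repeated spots, quantile normalized over the 43603 probes, floored at the mean normalized median of 153 negative controls (41.0 units) and log2 transformed. The platform annotation names 10278 probes with 1 symbol, 0 with several, and leaves 33325 unnamed. RefSeq accessions matched for 6051 probes and updated symbols; IL genes kept the platform symbol (IL8 is now CXCL8, IL23RA is IL23R). Of 4559 genes, 3740 had a brightest probe above the 30th percentile of all probe means (5.90), among them 34 of the 38 members; IL12B, IL15, IL17RB and IL1RAPL2 did not. No member was saturated.

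The 8 samples were fitted in limma 3.58.1 under R 4.3.3 with 4 group means and no block, with 4 residual and 5.43 prior degrees of freedom. Benjamini-Hochberg adjusted p-values over 3740 genes were called under 0.05. The fit was tested on simulated data. A fold is given as "at least" where the dimmer group was below background on both arrays, against the higher of the threshold and the probe's value. Genes described in full were those above background in all samples, those with an unadjusted p under 0.05, and in each comparison up to 5 with the largest difference among those above background in both samples of a group with the same sign in both sows; other genes that are named were chosen after their values were seen. The members and lists were chosen with earlier results of these data known.

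Samples with the same number come from the same sow, so the numbers pair the samples; the differences between the sows correlated across groups with r from -0.01 to 0.29 over genes, highest between colostrum and blood samples of 1 population. The number of arrays limits the precision. Median probe intensity was 118 to 133 units in colostrum and 27 to 34 in blood samples before normalization. Alternatives changed the normalization, the source of the values, the filter, the floor, the probe rule, the block and the samples. No sequences are shown.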

Additional observations from a re-analysis of the deposited data

How the results depend on the processing

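Of 25 differences described by the naming rule, 423 values were computed under 17 alternatives, and 407 kept their direction and stayed short of an adjusted p under 0.05; 16 had the opposite sign. With each sample scaled by its 75th percentile these were IL4R (-1.24) and IL8 (-0.50) between colostrum and blood CD8 single positive cells, IL2RG (-0.62) in double positive cells and the interaction of IL6R (-1.39). The interaction of IL6R was -1.63 with cyclic loess and -0.53 with the mean of all probes, under which IL4R between the populations in colostrum was 0.024. Leaving out 1 sample at a time, the interaction ran from -0.34 to 1.17 for IL12RB1 and from -0.65 to 1.12 for IL6R, and IL4R between the populations in colostrum from -0.40 to 0.10. IL16 between colostrum and blood double positive cells was -2.14 with 75th percentile scaling. The cause was not tested.

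The count of interleukin and receptor genes called was 0 in all 5 comparisons under all alternatives but 1: scaling by the 75th percentile called 1, IL4R, in double positive cells between colostrum and blood (-2.40, adjusted p = 0.0272, against -0.36), and 281 of all genes there. The median of all genes in that comparison was -0.07 under this scaling. IL6R differed between the populations by 1.18 to 2.96 in colostrum and 1.17 to 3.15 in blood over the alternatives, and IL10 in blood by 1.29 to 5.66. The 2.96 of IL6R was measured against a single CD8 single positive value at the floor. The median over the interleukin and receptor genes ran from 0.04 to 0.69 between colostrum and blood CD8 single positive cells, and from -0.36 to 0.34 in double positive cells, with 0.34 under 75th percentile scaling. Over all genes, the calls between colostrum and blood CD8 single positive cells numbered 2 with 75th percentile scaling, 5 with a floor at the 95th percentile of the negative controls, 3 with a random block and 0 to 1 without each sample in turn. With that floor 2 genes were called between colostrum and blood double positive cells. Between the populations in colostrum, the 1 call became 0 with 75th percentile scaling, cyclic loess, the matrix values, no filter, the mean of probes and the sow as replicate block, 0 without any 1 sample, and 2 with that floor or with probes above the negative controls. In blood it was 2 with that floor and 1 with those probes. The replicate block, with the sow as a fixed term or the pair of sow and population as a random term (correlation 0.24), changed no other call and gave 0 calls among the interleukin and receptor genes. Signal near background limits most ligands: of 38 genes, 7 were never and 14 only once above it.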

Other observations

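On the third IL6 probe, the value in blood double positive cells of sow 2 was 10.08, while the other 7 samples lay at 5.36 to 6.43, none above background. The 2 other IL6 probes were at 5.36 and 6.06 in that sample, neither above background. On the tested IL6 probe, colostrum CD8 single positive cells of sow 2 were the only sample above background, at 7.58.

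IL22, a cytokine that acts on epithelium, was above background in colostrum CD8 single positive and in blood double positive cells of sow 1 (6.98 and 7.05) and at 6.15 to 6.71 in the other 6 samples. IL23RA, now named IL23R, was above background in CD8 single positive cells of sow 1 from both sources (7.53 in colostrum).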
